A study of Mus musculus with 6 samples.

Results

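The transcripts described here encode NRF2, 6 enzymes whose genes are classic NRF2 targets, and 3 core antioxidant enzymes. The 10 genes were taken by name: *Nfe2l2*, *Nqo1*, *Gclc*, *Gclm*, *Txnrd1*, *Srxn1*, *Hmox1*, *Cat*, *Gpx1* and *Sod1*. Each name matched 1 of the 56691 Ensembl genes in the deposited table. All 10 had a mean FPKM of at least 1 and were therefore tested.

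Liver RNA from 3 KPF and 3 WPF dams was sequenced as poly(A) libraries. KPF dams were hepatocyte-specific *Chrebp* knockouts (h*Chrebp* KO: 2 floxed *Chrebp* alleles plus an albumin-promoter Cre transgene). WPF dams are labelled WT, and the methods of the study describe them as *Chrebp*flox/flox without Cre, so both groups carried the floxed alleles and only KPF carried Cre. All dams were pregnant females that received HFrD, a high-fructose diet, from mating until sacrifice in late pregnancy; their age was not given in the sources used here. Albumin-driven Cre deletes in hepatocytes, whereas a piece of liver also holds macrophages, endothelium, stellate cells and blood, which keep the allele. In such bulk RNA, fewer cells of a type and less RNA per cell cannot be told apart. The labels do not tie the libraries to separate litters or days, and the p values measure the spread between these 6 libraries.

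NRF2 is a transcription factor that KEAP1 marks for degradation under resting conditions. Electrophiles and oxidants modify KEAP1, and NRF2 then accumulates, pairs with small MAF proteins and binds antioxidant response elements in front of genes for glutathione synthesis, thioredoxin reduction and quinone detoxification. Most of this control acts on the protein, so the mRNA of *Nfe2l2* is not a readout of NRF2 activity. Catalase, GPX1 and SOD1 remove hydrogen peroxide and superoxide; they are abundant in hepatocytes and are less dependent on NRF2 than the classic targets.

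The libraries held 10694496 to 11567941 counted reads in KPF and 12988865 to 14496630 in WPF, so each KPF library was smaller than each WPF library. KPF replicate 3 resembled the WPF libraries (mean Spearman correlation across genes 0.902) more than its own group (0.854). *Mlxipl*, the ChREBP gene, ran in KPF replicates 1 to 3 at 182, 709 and 860 CPM (reads scaled by TMM to a common library size). WPF replicates 2 to 4 had 974, 1277 and 891 CPM. The groups did not overlap, and the log2 fold change, KPF minus WPF, was -0.84 (SE 0.53, adjusted p = 0.584 in edgeR). These counts cover the whole gene, including exons outside the deleted one. The hepatocyte markers *Alb*, *Apoa1*, *Ttr*, *Trf*, *Ahsg* and *Fgb* summed to between 87298 and 189217 CPM, which fits the label liver.

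Regulatory sequence at the starts of these genes was read from RefSeq promoter windows on GRCm38.p6, which run from 250 bases before the start to shortly after it and are 300 bases long. The table matched 8 of the 10 genes in 10 windows, 3 of them for alternative starts of *Txnrd1*. *Hmox1* and *Gclc* had no entry. The core of the antioxidant response element, TGACNNNGC, was searched on both strands. It was present in 5 of the 10 windows, against 12.4% of all 32851 windows. The E-box CACGTG, which is the repeated unit of the element bound by ChREBP, was present in 0 of the 10 windows and in 7.15% of all windows. A match of these letters is a description of the sequence and not evidence of a bound site. The 5 matches are shown with 10 bases on either side, on the strand that carries the motif, with the motif in capitals.

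Nfe2l2: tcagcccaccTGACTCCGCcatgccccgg
Gclm: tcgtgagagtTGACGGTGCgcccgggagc
Txnrd1: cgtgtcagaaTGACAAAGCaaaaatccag
Sod1: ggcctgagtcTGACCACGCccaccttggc
Srxn1: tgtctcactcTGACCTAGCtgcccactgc

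They lie at chr2:75704885-75704913 (*Nfe2l2*), chr3:122245413-122245441 (*Gclm*), chr10:82859104-82859132 (*Txnrd1*), chr16:90220696-90220724 (*Sod1*) and chr2:152105542-152105570 (*Srxn1*). The motif begins 240 bases before the start of *Nfe2l2*, 134 before that of *Gclm*, 92 before the middle start of *Txnrd1* and 56 before that of *Sod1*. In *Srxn1* it lies within the transcript, at positions 29 to 37. The *Nfe2l2* match is on the strand of the gene, and the other 4 are on the opposite strand.

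The 250 bases upstream of *Nfe2l2* and of the middle start of *Txnrd1* are given in full, since these were the genes called lower in KPF. Both are on the strand of the gene. Capitals mark the motif, which reads as its reverse complement in *Txnrd1*. The first is chr2:75704664-75704913 on the minus strand, with 70.4% G and C, and the second is chr10:82858956-82859205 on the plus strand, with 59.6% G and C.

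Nfe2l2: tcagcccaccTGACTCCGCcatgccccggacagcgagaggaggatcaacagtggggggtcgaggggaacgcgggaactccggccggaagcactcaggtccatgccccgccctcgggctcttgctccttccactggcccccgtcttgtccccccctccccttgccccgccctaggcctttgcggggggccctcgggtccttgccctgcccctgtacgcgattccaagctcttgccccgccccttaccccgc
Txnrd1: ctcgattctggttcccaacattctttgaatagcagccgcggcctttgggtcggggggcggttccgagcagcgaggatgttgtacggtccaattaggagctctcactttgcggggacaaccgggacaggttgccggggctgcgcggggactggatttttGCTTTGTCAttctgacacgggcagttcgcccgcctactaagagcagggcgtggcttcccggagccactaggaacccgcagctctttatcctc

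KPF was compared with WPF to see what the loss of hepatocyte ChREBP does to liver transcripts under HFrD. *Nfe2l2*, which encodes NRF2, and *Txnrd1*, which encodes cytosolic thioredoxin reductase, were lower in KPF by a rule of an unadjusted p under 0.05 and at least 1.5-fold, at 40.8% and 63.6% of the WPF level. *Gclm* and *Cat* were lower in every KPF library than in every WPF library but missed the rule. *Nqo1*, *Hmox1* and *Srxn1*, classic NRF2 targets like *Txnrd1* and *Gclm*, did not differ beyond the spread between libraries. *Nqo1* had only 71 to 260 reads per library and *Hmox1* 42 to 98, so a modest difference could be missed. After adjustment over all tested genes, edgeR called none at 0.05.

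Of the 10 genes, 2 were called lower by the rule and 0 higher. Among all 10866 tested genes, 3.98% were called lower and 5.83% higher by the same rule. An adjusted p under 0.05 was reached by 0% of the tested genes, with 1176 genes at an unadjusted p under 0.05 in edgeR and 1000 with limma on log2(FPKM + 1), and with 156 genes at an adjusted p under 0.05 in DESeq2, none of the 10 among them. The smallest adjusted p of edgeR was 0.397. The fitted log2 fold change was below 0 for 9 of the 10 genes, against 48.6% of all tested genes, and its median over the 10 was -0.41, against 0.02 over all. All 3 KPF libraries lay below all 3 WPF libraries for 4 of the 10 genes, against 8.15% of all tested genes. With 3 libraries a group, the smallest p of an exact two-sided permutation test is 0.1, and it was reached for these 4 genes.

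**Figure D1:**
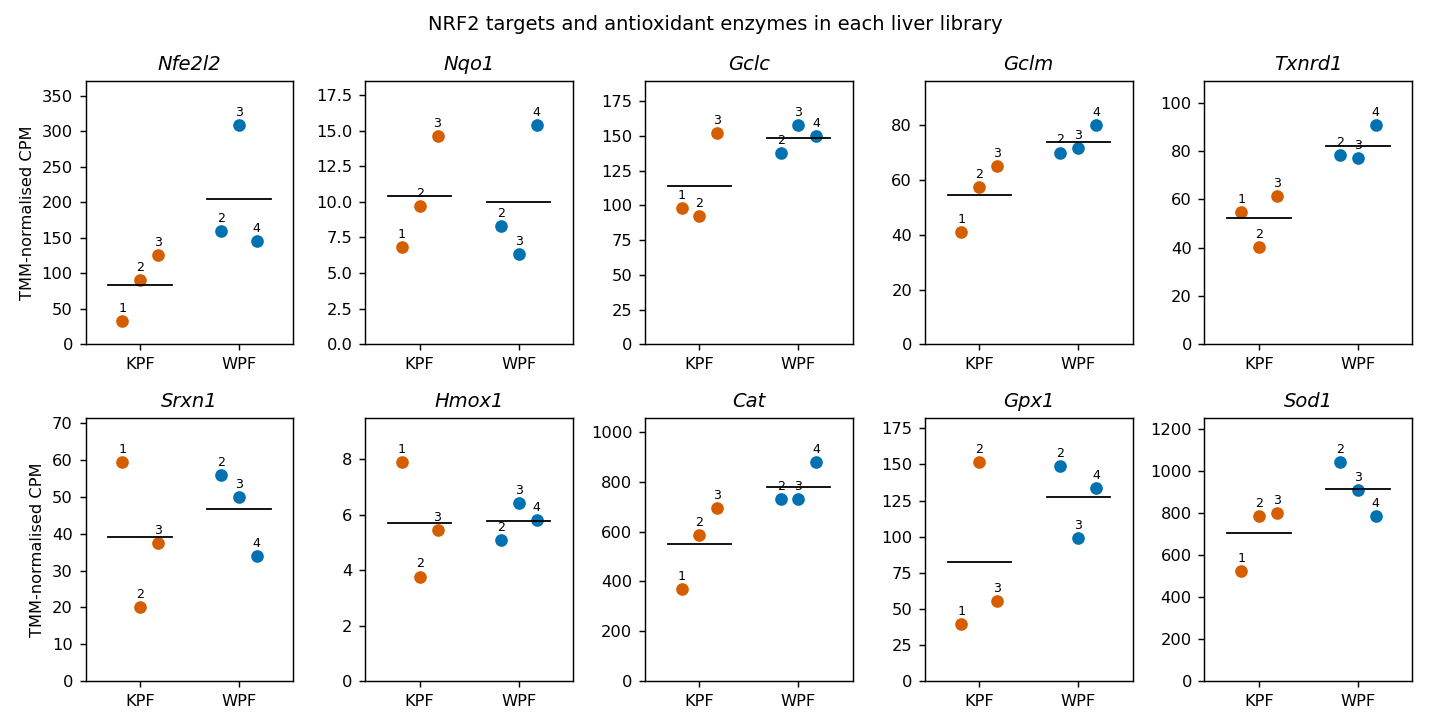
Each panel plots 1 gene, with TMM-normalised CPM from 0 on the vertical axis, the 3 KPF libraries in orange and the 3 WPF libraries in blue, each point numbered by its replicate, and a black line at the group mean. *Nfe2l2*, *Gclm*, *Txnrd1* and *Cat* show no overlap of the groups, with *Nfe2l2* between 33.0 and 126 CPM in KPF and between 145 and 309 CPM in WPF.

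*Nfe2l2* (ENSMUSG00000015839, chromosome 2, 75505857 to 75534985, minus strand, on GRCm39, the build named in the submitters' processing notes) was counted in KPF replicates 1 to 3 at 33.0, 91.1 and 126 CPM. WPF replicates 2 to 4 had 159, 309 and 145 CPM. Further values are given in this order of libraries. KPF replicate 1 was far below the other libraries and WPF replicate 3 far above them. On the log2 scale KPF differed from WPF by -1.29 (SE 0.52, unadjusted p = 0.0393, adjusted p = 0.450, quasi-likelihood test of edgeR). These libraries carried the size of the difference: it was -0.91 without KPF replicate 1 (unadjusted p = 0.0676 in edgeR) and -0.87 without WPF replicate 3 (unadjusted p = 0.151 in edgeR). Without KPF replicate 2 the unadjusted p of edgeR was 0.0574 at -1.37, and without KPF replicate 3 the difference was -1.72.

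The KPF library with the least *Nfe2l2* was also the one with the least *Mlxipl*, replicate 1, and the WPF library with the most *Nfe2l2* was the one with the most *Mlxipl*, replicate 3. KPF replicate 3, which was near the WPF libraries in *Mlxipl*, had the highest *Nfe2l2* of its group. KPF replicate 1 also had the lowest level of its group for 6 of the genes described here, *Nfe2l2* among them. It had the highest sum of erythroid markers of all libraries, at 525 CPM. Whether other genes follow *Mlxipl* over the libraries was not tested, nor was a link between *Nfe2l2* and *Mlxipl*.

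The catalytic subunit of glutamate-cysteine ligase, GCLC, and its modifier subunit, GCLM, form the enzyme of the rate-limiting step of glutathione synthesis. *Gclc* (ENSMUSG00000032350, chromosome 9, 77661817 to 77701767, plus strand) stood at 97.8, 92.4 and 152 CPM in KPF, against 138, 158 and 150 CPM in WPF. KPF replicate 3 was level with WPF, so the groups overlapped. KPF minus WPF came to a log2 fold change of -0.38 (SE 0.27, adjusted p = 0.625 in edgeR). Without KPF replicate 3, *Gclc* passed the rule at -0.64 (unadjusted p = 0.0354 in edgeR).

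*Gclm* (ENSMUSG00000028124, chromosome 3, 122039206 to 122064381, plus strand) stood at 41.2, 57.6 and 65.2 CPM in KPF. In WPF it stood at 70.1, 71.8 and 80.2 CPM, so the groups did not overlap, and the WPF libraries lay close together. The log2 fold change was -0.44 (SE 0.24, unadjusted p = 0.103, adjusted p = 0.532 from edgeR). Per length, the ratio of *Gclc* to *Gclm* FPKM within a library ran from 2.68 to 3.96 over all 6 libraries, a range of 1.48-fold. It overlapped between the groups, at 3.96, 2.68 and 3.90 in KPF and 3.28, 3.68 and 3.12 in WPF.

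Thioredoxin reductase passes electrons from NADPH to thioredoxin, and sulfiredoxin repairs overoxidised peroxiredoxins. *Txnrd1* (ENSMUSG00000020250, chromosome 10, 82669785 to 82733546, plus strand) stood at 54.9, 40.3 and 61.6 CPM in KPF, against 78.5, 77.1 and 90.9 CPM in WPF. The groups did not overlap, and the highest KPF library remained well under the lowest WPF library. On the log2 scale KPF differed from WPF by -0.65 (SE 0.23, unadjusted p = 0.0251, adjusted p = 0.430 from edgeR). Among leave-one-out fits it ran from -0.79 to -0.50, and the unadjusted p of edgeR was 0.0686 without KPF replicate 2, 0.0519 without WPF replicate 2 and 0.0646 without WPF replicate 4.

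*Srxn1* (ENSMUSG00000032802, chromosome 2, 151947436 to 151953296, plus strand) varied most within KPF among the classic targets apart from *Nfe2l2* itself, at 59.6, 20.1 and 37.5 CPM. WPF stood at 56.0, 50.1 and 34.0 CPM. KPF replicate 1 was the highest of the 6 libraries and KPF replicate 2 the lowest. KPF minus WPF came to a log2 fold change of -0.26 (SE 0.40, adjusted p = 0.823 in edgeR), and it was 0.05 without KPF replicate 2.

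NQO1 reduces quinones in a 2-electron step and is the textbook NRF2 target. *Nqo1* (ENSMUSG00000003849, chromosome 8, 108114857 to 108129838, minus strand) had only 71 to 260 reads per library. It stood at 6.85, 9.68 and 14.6 CPM in KPF, against 8.32, 6.34 and 15.4 CPM in WPF. Each group held 1 library that was clearly higher than its other libraries, KPF replicate 3 and WPF replicate 4. The log2 fold change was 0.05 (SE 0.41, adjusted p = 0.972 from edgeR), scaling by library totals turned it to -0.14, and it was 0.71 with the replicate block.

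Haem oxygenase 1 splits haem into biliverdin, iron and carbon monoxide, and in liver it is strongly expressed in Kupffer cells, the resident macrophages. *Hmox1* (ENSMUSG00000005413, chromosome 8, 75820249 to 75827217, plus strand) was the least abundant of the 10, with 42 to 98 reads per library. It stood at 7.92, 3.77 and 5.45 CPM in KPF, against 5.08, 6.41 and 5.82 CPM in WPF, so that KPF held both the highest and the lowest library. On the log2 scale KPF differed from WPF by -0.02 (SE 0.34, adjusted p = 0.986 from edgeR), and it was 0.31 when scaled to hepatocyte markers. Summed markers of Kupffer cells stood at 202, 276 and 274 CPM in KPF, against 192, 268 and 394 CPM in WPF, with 0 of 10 markers called. Markers of erythroid cells, which carry haem, were highest in KPF replicate 1, at 525 CPM against 48.3 to 331 CPM in the other libraries, with 5 of 8 markers tested and 0 called. Among all tested genes, 3.98% were called lower and 5.83% higher. KPF replicate 1 was also the highest for *Hmox1* and *Srxn1*, and the part of red cells in this was not tested.

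Catalase breaks down hydrogen peroxide in peroxisomes. *Cat* (ENSMUSG00000027187, chromosome 2, 103284194 to 103315505, minus strand) stood at 368, 587 and 695 CPM in KPF, against 731, 730 and 881 CPM in WPF. The groups did not overlap, but KPF replicate 3 came close to the lower WPF libraries. KPF minus WPF came to a log2 fold change of -0.51 (SE 0.31, unadjusted p = 0.138, adjusted p = 0.575 in edgeR).

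SOD1 is the cytosolic copper- and zinc-dependent superoxide dismutase. *Sod1* (ENSMUSG00000022982, chromosome 16, 90017642 to 90023217, plus strand) stood at 524, 783 and 799 CPM in KPF, against 1043, 910 and 783 CPM in WPF. WPF replicate 4 was level with KPF replicates 2 and 3, and the log2 fold change was -0.38 (SE 0.28, adjusted p = 0.643 from edgeR). On deposited FPKM, which use library totals, the groups of *Sod1* did not overlap, at 128, 194 and 179 in KPF and 231, 245 and 229 in WPF. On that scale 5 of the 10 genes were without overlap, against 12.2% of all tested genes.

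GPX1 is the main cytosolic glutathione peroxidase and carries selenocysteine at its active site, as does thioredoxin reductase. *Gpx1* (ENSMUSG00000063856, chromosome 9, 108216102 to 108217542, plus strand) split the KPF libraries. Replicates 1 and 3 stood at 39.2 and 55.3 CPM, below all WPF libraries, whereas replicate 2 stood at 152 CPM and was the highest of all. WPF stood at 149, 98.9 and 134 CPM. The log2 fold change was -0.63 (SE 0.50, adjusted p = 0.664 from edgeR). Without KPF replicate 2 it was -1.44 (unadjusted p = 0.00197, adjusted p = 0.385 in edgeR).

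The 10 genes spanned a wide range of levels. Per length, *Cat* and *Sod1* led, with median FPKM of 241 and 211 over the 6 libraries, and *Cat* was above *Sod1* in 6 of 6 libraries although their ranges overlapped. Together they made up between 67.9% and 74.9% of the summed FPKM of the 10 genes in each library. *Gpx1* followed at 82.2 FPKM, and its range (26.4 to 108) did not reach that of *Sod1* (128 to 245). *Gclc* at 34.0, *Nfe2l2* at 33.2, *Srxn1* at 15.7, *Gclm* at 9.50, *Txnrd1* at 8.72, *Nqo1* at 5.42 and *Hmox1* at 3.31 came next, and from *Gpx1* downwards each neighbour in this order overlapped the next over the libraries. Among the 10866 tested genes, *Cat* ranked between 86 and 241 by FPKM, and *Nfe2l2* between 416 and 795 in WPF but between 906 and 3056 in KPF.

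Within KPF, the libraries did not share 1 pattern over the 10 genes. Replicate 1 had the lowest level of its group for 6 genes, *Nfe2l2*, *Nqo1*, *Gclm*, *Cat*, *Gpx1* and *Sod1*. Replicate 2 had the lowest for the other 4, *Gclc*, *Txnrd1*, *Srxn1* and *Hmox1*, and replicate 3 for 0. Replicate 3 was also the KPF library nearest to WPF over all genes.

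The scaling moved all of these values. Over every tested gene the median log2 fold change stood at 0.02 under TMM, -0.12 under library totals and 0.40 when libraries were scaled to the geometric mean of the 6 hepatocyte markers, whose own median log2 fold change was -0.41 with TMM. The medians of the 10 genes were -0.41, -0.56 and -0.03 in the same order. Relative to the shift of all genes, 9 of the 10 were below the median of all with TMM, 10 with library totals and 9 with hepatocyte markers. Scaled to hepatocyte markers, *Nfe2l2* stood at -0.95 and *Txnrd1* at -0.28, 0 of the 10 genes passed the rule, and *Sod1*, *Srxn1* and *Hmox1* changed sign. The calls over all genes split into 634 higher and 432 lower with TMM, 371 higher and 716 lower with library totals, and 1307 higher and 96 lower with hepatocyte markers.

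**Figure D2:**
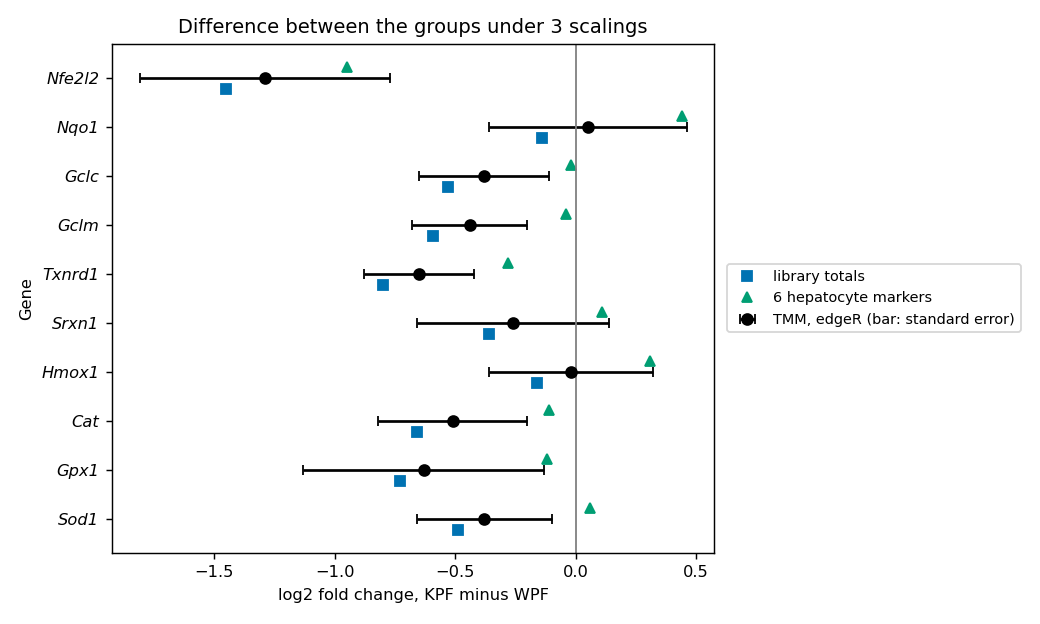
The horizontal axis gives the log2 fold change of KPF minus WPF for each of the 10 genes, with black points and standard errors from edgeR with TMM, blue squares for library totals and green triangles for scaling to 6 hepatocyte markers. *Nfe2l2* lies left of 0 under all 3 scalings, from -1.45 to -0.95, whereas *Sod1*, *Srxn1* and *Hmox1* cross 0 under the hepatocyte scaling and *Nqo1* under library totals.

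Summed markers of stellate cells and fibroblasts and of adipose and mesothelium separated the groups, whereas those of the other cell types overlapped. Summed markers of stellate cells and fibroblasts stood at 424, 720 and 177 CPM in KPF, against 107, 134 and 120 CPM in WPF. Of the 8 markers, 5 were called higher and 0 lower, against 5.83% and 3.98% of all tested genes. Among those called, *Col1a1*, *Col1a2* and *Reln* averaged under 1 FPKM in WPF and passed the FPKM minimum only through KPF. *Des*, the desmin filament of muscle and stellate cells, made up 493 of the 720 CPM in KPF replicate 2. It overlapped between the groups, with 10.2 CPM in KPF replicate 3 and 10.6 CPM in WPF replicate 2. The other 7 markers summed in KPF to 369, 228 and 167 CPM and in WPF to 96.6, 125 and 113 CPM, still without overlap. *Lrat*, the retinol-esterifying enzyme of stellate cells, overlapped and had a log2 fold change of -0.35 (adjusted p = 0.716 in edgeR). The single markers in this paragraph are named after their values were seen. Adipose and mesothelium markers stood at 16.9, 31.4 and 4.09 CPM in KPF, against 1.75, 3.49 and 2.31 CPM in WPF. *Adipoq*, *Plin1* and *Cfd* were at 0 in some libraries. Of the 6 genes, 2 were tested and called higher, *Cfd* and *Msln*. They averaged 8.09 and 1.67 FPKM in KPF but 0.0567 and 0.4 in WPF. They thus passed the FPKM minimum only through KPF, which largely fixed the direction of their calls. Summed hepatocyte markers were lower in KPF on average but overlapped, at 96224, 87298 and 114457 CPM against 189217, 113875 and 115494 CPM, with 0 of 6 called. Markers of endothelium (81.4 to 101 CPM, with 1 of 6 called higher), bile ducts (25.0 to 51.9 CPM) and neutrophils (2.63 to 6.72 CPM) overlapped between the groups, and 0 of the 2 bile duct and 2 neutrophil markers tested, of 5 in each list, were called. The part of these cells in the values of the 10 genes was not tested.

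**Figure D3:**
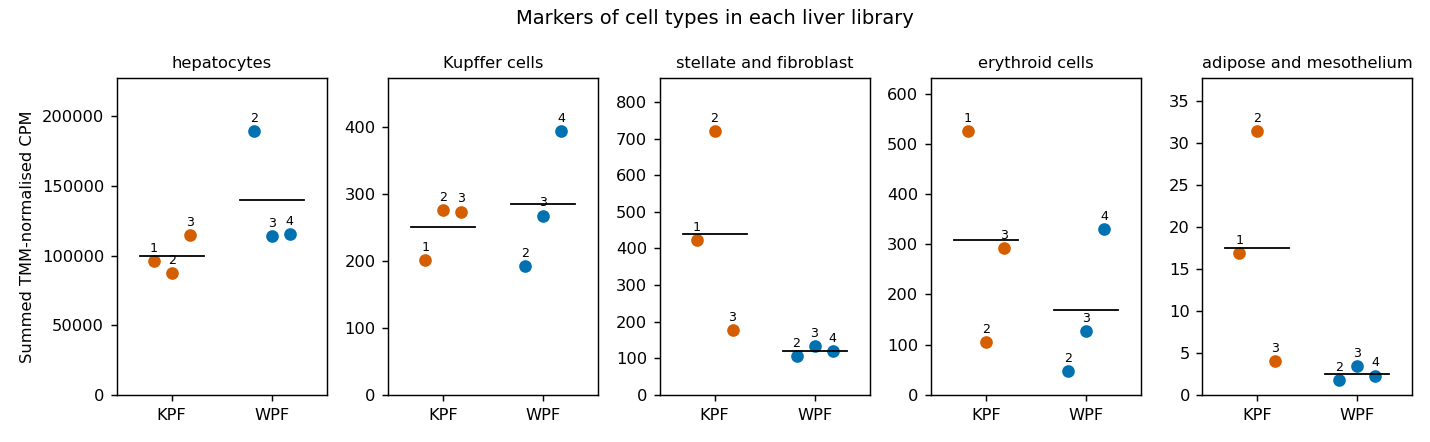
Each panel sums the TMM-normalised CPM of the markers of 1 cell type per library, from 0 on the vertical axis, with KPF in orange, WPF in blue, replicate numbers beside the points and black lines at the group means. Stellate and fibroblast markers and adipose and mesothelium markers are higher in each KPF library than in each WPF library, and most so in KPF replicates 1 and 2.

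The genes around NRF2 were read from lists. Of the proteins that control NRF2, 10 of 11 were tested, and 0 were called in either direction, against 3.98% lower and 5.83% higher of all tested genes. Their median log2 fold change was -0.11, against 0.02 over all tested genes. *Keap1*, the adaptor that targets NRF2 for degradation, stood at 60.1, 43.7 and 58.4 CPM in KPF, against 63.8, 60.2 and 57.8 CPM in WPF, with a log2 fold change of -0.16 (SE 0.21). It is named here beyond the rule for named genes, after its values were seen. The smallest unadjusted p were those of *Sqstm1*, the autophagy receptor p62 that sequesters KEAP1 and is itself an NRF2 target, at -0.60 (unadjusted p = 0.0760 in edgeR), and of *Cul3*, the scaffold of the KEAP1 ubiquitin ligase, at -0.38 (unadjusted p = 0.158 in edgeR). *Sqstm1* had 292 and 302 CPM in WPF replicates 2 and 3, but 173 CPM in WPF replicate 4, which lay within the KPF range of 142 to 191 CPM. It passed the rule under 6 of 15 alternatives.

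Of 18 other NRF2 targets, 15 were tested, with a median of -0.42 against 0.02 over all tested genes. Of the 15, 2 were called lower and 0 higher, against 3.98% and 5.83% of all tested genes. The called genes encode glutathione S-transferases of the mu class. *Gstm3* stood at 15.5, 46.9 and 80.5 CPM in KPF, against 288, 226 and 177 CPM in WPF, with a log2 fold change of -2.27 (SE 0.56, unadjusted p = 0.00392, adjusted p = 0.430 from edgeR). *Gstm1* stood at 478, 742 and 746 CPM in KPF, against 1606, 1039 and 1871 CPM in WPF, with a log2 fold change of -1.20 (SE 0.33, adjusted p = 0.430 from edgeR). Neither overlapped between the groups. The mu-class genes are close copies of each other, and the counting may have divided their reads. *Gstm3* passed the rule under 15 of 15 alternatives, with adjusted p from 0.00245 (DESeq2) to 0.823, and *Gstm1* under 13, with adjusted p from 0.0268 (DESeq2) to 0.823. *Gstm1* was not called with the replicate block (-0.80) or with hepatocyte scaling (-0.76). Genes called lower in this list numbered 1 with hepatocyte scaling and 2 or 3 under the other alternatives. With the replicate block, 1 gene was called higher, *Gsta2*, at 1.23, against -0.14 with all libraries and TMM. *Abcc3* stood at 0.76 with all libraries and TMM and was not called. Without KPF replicate 2 it was called lower at -0.79. Both genes are named after their values were seen.

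NADPH feeds both glutathione reductase and thioredoxin reductase. Of 6 NADPH-supplying genes, 5 were called lower and 0 higher, with a median of -1.50. Over all tested genes, 3.98% were called lower and 5.83% higher, with a median of 0.02. Malic enzyme *Me1*, described as a target of both ChREBP and NRF2, stood at 6.95, 9.32 and 9.93 CPM in KPF, against 93.6, 159 and 14.9 CPM in WPF, a log2 fold change of -3.35 (SE 0.76, adjusted p = 0.415 from edgeR). The pentose phosphate enzymes stood at -1.98 (*G6pdx*), -1.95 (*Pgd*), -1.04 (*Tkt*) and -0.61 (*Taldo1*). WPF replicate 4 was near KPF for *Me1* and *Tkt*, and the groups overlapped for *G6pdx* and *Pgd*. It had 3.56 CPM of *G6pdx*, within the KPF range of 3.31 to 5.47. For *Pgd* it had 38.5 CPM, within the KPF range of 19.5 to 41.7. By contrast, WPF replicate 4 had the most *Txnrd1*, *Gclm* and *Cat* among the 6 libraries. Without WPF replicate 3, *Me1* moved to -2.63 and stayed called, whereas *G6pdx* moved to -1.25 and was not called (unadjusted p = 0.0902 in edgeR). *Me1* and *Pgd* passed the rule under 15 of 15 alternatives, *G6pdx* under 11 of 14, *Tkt* under 11 of 15 and *Taldo1* under 8 of 15. *G6pdx* also lost the call without KPF replicate 1 or 3, and *Tkt* without KPF replicate 3 or WPF replicate 2 or 3. *Taldo1* passed among the leave-one-out fits only without KPF replicate 3, and it stood at -0.45 with the replicate block. The number of called genes in this list was 2 without WPF replicate 3, and 3 without KPF replicate 1, without WPF replicate 2 or with hepatocyte scaling.

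The thioredoxin list, without *Txnrd1* and *Srxn1*, had a median of -0.37, against 0.02 over all tested genes. Of its 13 genes, 5 were called lower and 0 higher, against 3.98% and 5.83% of all tested genes. The called genes were the peroxiredoxins *Prdx1* (-0.75), *Prdx3* of mitochondria (-0.72) and *Prdx5* (-0.85), the methionine sulfoxide reductase *Msra* (-0.65) and *Txnrd3* (-0.84), which had only 2.12 to 5.91 CPM. *Txnrd3* averaged 0.97 FPKM in KPF but 1.94 in WPF, and its FPKM overlapped between the groups. It passed the FPKM minimum only through WPF, the group where it was higher, so its call lower is no independent result. *Prdx3* stood at 23.9, 23.0 and 32.2 CPM in KPF, against 43.1, 46.4 and 40.5 CPM in WPF, without overlap (SE 0.21, unadjusted p = 0.00937, adjusted p = 0.430 from edgeR). *Prdx1*, itself described as an NRF2 target, stood at 106, 113 and 175 CPM in KPF, against 252, 206 and 205 CPM in WPF. *Txnip*, the thioredoxin inhibitor and a known ChREBP target, is named after its values were seen: it had a log2 fold change of 0.33 (SE 0.39, adjusted p = 0.777 from edgeR). *Prdx3* passed the rule under 14 of 15 alternatives, *Prdx5* and *Msra* under 10 of 15, *Prdx1* under 9 of 15 and *Txnrd3* under 7 of 14. Genes called lower in this list numbered 1 without KPF replicate 1, 2 without either WPF replicate 2 or WPF replicate 3, and 3 without WPF replicate 4. They numbered 1 with the replicate block and 0 with hepatocyte scaling. Without WPF replicate 4 and with the replicate block, 1 gene was also called higher, *Msrb1*, at 0.79 in both. With all libraries and TMM *Msrb1* stood at 0.40 and was not called, and it is named after its values were seen.

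In the rest of the glutathione cycle, 10 of 11 genes were tested, and the median was 0.13, against 0.02 over all tested genes. Of the 10, 1 was called lower and 0 higher, against 3.98% and 5.83% of all tested genes. The called gene was *Gpx4*, the phospholipid hydroperoxidase that guards against ferroptosis, at 64.2, 95.1 and 74.7 CPM in KPF, against 116, 100 and 142 CPM in WPF, a log2 fold change of -0.61 (SE 0.26, unadjusted p = 0.0446, adjusted p = 0.456 from edgeR). It was not called without KPF replicate 1 or 3 or WPF replicate 2 or 4, with the replicate block (-0.36), nor with hepatocyte scaling (-0.20). The direction of the calls in this list turned in 2 settings. Without WPF replicate 2 and with hepatocyte scaling, 2 genes were called higher and 0 lower. They were *Gpx3*, the secreted plasma glutathione peroxidase, at 1.28 and 1.22, and *Gpx8*, an endoplasmic reticulum member of the family, at 2.14 and 1.81, in the same order of settings. With all libraries and TMM they stood at 0.71 and 1.24 and were not called, and they are named after their values were seen. *Gpx8* had only 4 to 31 reads per library. It averaged 1.91 FPKM in KPF but 0.82 in WPF, so it passed the FPKM minimum only through KPF. Of the other superoxide and haem genes, 0 of 5 were called, against 3.98% called lower and 5.83% called higher of all tested genes. Their median was 0.11, against 0.02 over all tested genes. *Hmox2*, the constitutive haem oxygenase, stood at 0.41 (unadjusted p = 0.179 in edgeR), and *Blvra*, which reduces biliverdin, at -0.33 (unadjusted p = 0.187 in edgeR).

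**Figure D4:**
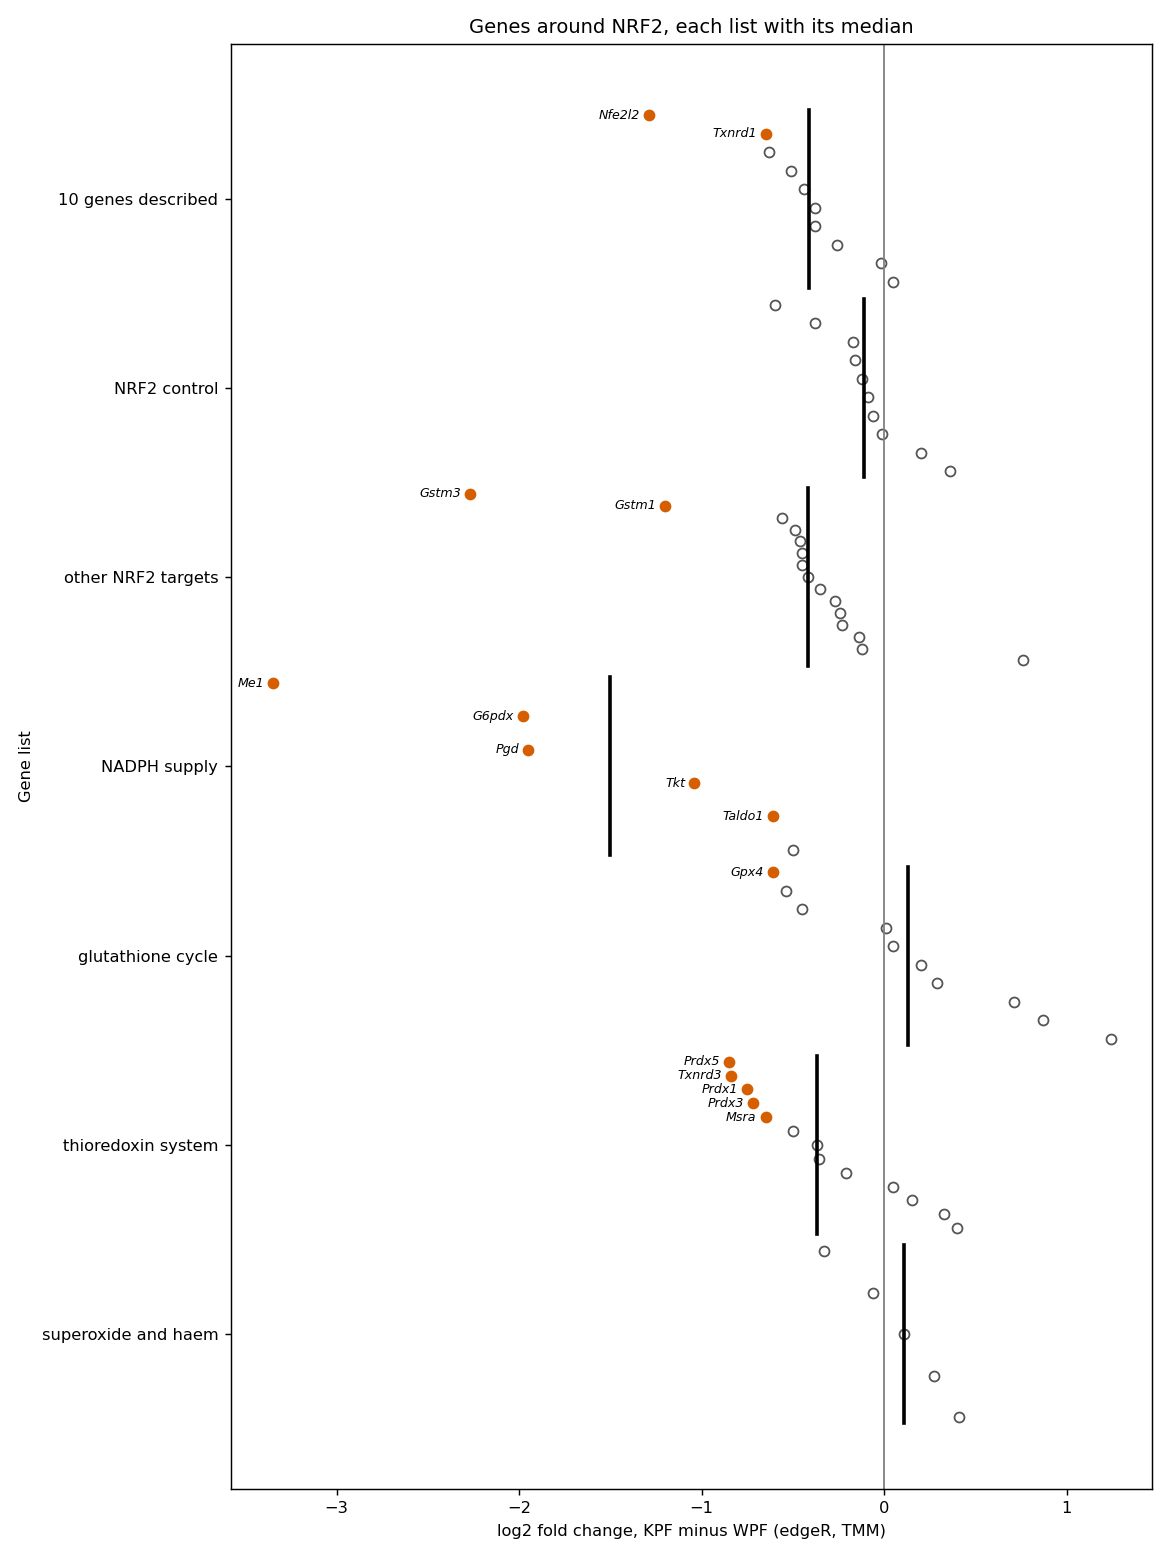
Each point is 1 tested gene at its log2 fold change, KPF minus WPF, from edgeR with TMM, each row is 1 list, and the black bar is the median of the list. Filled orange points with names passed an unadjusted p under 0.05 and at least 1.5-fold; all of them lie left of 0, most of them in the NADPH supply and thioredoxin rows, with 5 each.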

How the data were processed

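Poly(A) RNA libraries of whole liver were sequenced with paired ends by the authors. The authors deposited raw read counts per Ensembl gene and, beside them, FPKM values, which equal the count divided by the exonic length and by the total of counted reads, rounded to 2 decimals. The submitters' processing notes name cutadapt 1.9.1, HISAT2 2.2.1, HTSeq 0.6.1, DESeq2 and GRCm39. Whether counting used strand was not given in the sources used here. Gene symbols came from a table pairing Ensembl IDs with symbols (52073 of 56691 gene IDs matched), and no coordinates were combined across builds.

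Counts were compared by edgeR 4.0.16 (quasi-likelihood test, TMM scaling, R 4.3.3) after genes whose FPKM averaged under 1 were left out (10866 kept), with Benjamini-Hochberg adjustment over all of them. CPM is relative to the reads on tested genes. Exact permutation tests were two-sided on log2 CPM (SciPy). No library was a copy of another in its group (chi-square per gene at least 35.5). With 10694496 reads or more per library, genes of under 100 reads such as *Hmox1* are measured with wide error. The tests were tried on counts simulated from these libraries. DESeq2 1.42.0, limma 3.58.1 on log2(FPKM + 1) and log2(FPKM + 0.1), other scalings and filters, a replicate block and leaving out each library were the alternatives, and scaling to 6 hepatocyte markers was added after seeing the data. The 10 genes and all lists were chosen with earlier results of these data known. Named genes were the 10, and of each list those passing the rule or otherwise the 2 with the smallest p.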

Additional observations from a re-analysis of the deposited data

How the results depend on the processing

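Of 149 values of the 10 genes under 15 alternatives, 122 kept their direction and their side of the rule (unadjusted p under 0.05 and at least 1.5-fold), 9 lost the call, 4 gained it and 14 changed sign. *Nfe2l2* and *Txnrd1* were below 0 under 15 of 15 alternatives, from -1.72 to -0.87 and from -0.80 to -0.28, and passed the rule under 11 and 10. *Nfe2l2* lost the call without KPF replicate 1, KPF replicate 2 or WPF replicate 3 and with hepatocyte scaling, and *Txnrd1* without KPF replicate 2, WPF replicate 2 or WPF replicate 4, with hepatocyte scaling and with the replicate block. Of the 10 genes, 1 to 3 passed without any 1 library and 0 with hepatocyte scaling. *Nqo1* changed sign at -0.14 with library totals, -0.02 without a filter and -0.04 with limma at either pseudocount, ran from -0.28 to 0.49 with a library left out, and was highest at 0.71 with the replicate block. With a library left out, *Hmox1* ran from -0.33 to 0.21 and *Srxn1* from -0.70 to 0.05. *Hmox1* stood at 0.31 with hepatocyte scaling and had no value at a mean FPKM of at least 5. With hepatocyte scaling *Srxn1* stood at 0.11, *Sod1* at 0.06, *Cul3* at 0.03 and *Blvra* at 0.05. The cause of these changes was not tested.

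Over all genes, the adjusted p of 0.05 was passed by 0 genes with edgeR and TMM, 156 with DESeq2, 286 without a filter, 1 with limma on log2(FPKM + 0.1), 158 with hepatocyte scaling and 0 to 5 with a library left out. Genes called higher numbered 371 with library totals, 1576 without a filter, 255 at a mean FPKM of at least 5, 238 and 257 with limma at pseudocounts 1 and 0.1, 1307 with hepatocyte scaling, and 324 to 910 with a library left out. Genes called lower numbered 716, 910, 205, 552 and 681, 96, and 246 to 709 in the same order. Same-numbered libraries come from different dams. Their deviations from the group means correlated at 0.035 and -1.86e-05, against -0.108 and -0.185 for differently numbered libraries. With so few pairs, these values cannot decide whether the number pairs the libraries, and the labels state no pairing. With the replicate block, which rests on replicates 2 and 3, 680 genes were called higher and 551 lower, *Nfe2l2* stood at -1.05, *Txnrd1* at -0.64, *Nqo1* at 0.71 without passing the rule, and *Srxn1* passed it at -0.94.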
